A study of Mus musculus with 16 samples.

Results

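The proteasome subunit genes of HSCs sorted by MAC-1 are described here across 5 populations. Members were the genes of the count table named Psma, Psmb, Psmc, Psmd or Psme followed by a number, without the immunoproteasome genes Psmb8, Psmb9 and Psmb10. This gave 40 genes of 46078 in the table. Of these, 39 passed the filter on low counts and entered the tests among 13661 genes. The 1 gene below the filter, Psmb11, encodes a thymus beta subunit and had 8 counts in all.

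HSCs were live LSK SLAM cells (cKit+, Sca1+, CD48-, CD150+, and negative for CD3e, B220, Gr, NK1.1 and Ter119) from bone marrow, of WT B6.SJL origin. They were sorted by MAC-1, the integrin that holds the Itgam product CD11b. Untreated, steady-state cells gave SS MAC-1- (n = 3) and SS MAC-1low (n = 3) samples. Cells taken 4 weeks after 8000 LSK cells had been given to recipients irradiated with 900 cGy gave 4 week MAC-1- (n = 3), 4 week MAC-1low (n = 4) and 4 week MAC-1+ (n = 3) samples. For its serial transplantations the paper names B6.SJL donors and recipients of a C57Bl strain, which also received whole bone marrow of the recipient strain. The strain of the host thus differed between 4 week and steady-state HSCs. An SS MAC-1+ population was not analysed here, the age of the mice is not in the labels, and the labels do not say whether replicates came from separate mice, so that p-values measure only the spread between these samples. Values are CPM, counts divided by library size after scaling with edgeR's TMM factors, from SMART-Seq v4 libraries.

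The proteasome is the protease that degrades ubiquitin-tagged proteins. Its core particle, the 20S proteasome, is a barrel in which alpha rings of Psma subunits gate the channel and inner beta rings of Psmb subunits carry the catalytic sites. The 19S particle caps the barrel. Its Psmc ATPases unfold substrates, and its Psmd subunits bind ubiquitin, remove it and hold the lid together. Other caps are PA28 alpha and beta (Psme1, Psme2), which are interferon-inducible and serve peptide production, PA28 gamma (Psme3), which is nuclear, and PA200 (Psme4). HSCs are known to make protein slowly and to depend on a balanced proteome.

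Total counts ran from 13781278 to 28580658 per sample, 14533 to 17576 genes were detected in a sample, and mitochondrial genes took 3.96% to 9.62% of the counts. The 40 genes took 0.884% to 1.39% of the counts of a sample. Itgam was checked first as the sorted marker. It had 8.31, 30.0 and 3.80 CPM in the 4 week MAC-1+ samples and 0 to 1.78 CPM in the 4 week MAC-1- samples. The ranges did not overlap, although a 4 week MAC-1low sample, at 4.36 CPM, lay above the lowest MAC-1+ sample.

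Most core particle genes stood above the 19S genes when levels were compared per length of exon. The mean over the 5 populations was highest for Psmb2 (1202 CPM per kb), a non-catalytic beta subunit, and Psmb6 (1157 CPM per kb), the caspase-like catalytic subunit. Psma1 followed with 890 CPM per kb. The lowest tested levels were those of Psmd9 (5.93 CPM per kb), a chaperone of 19S assembly, Psmd3 (8.14) and Psmd13 (8.25), both lid subunits. From the lowest to the highest the range was 203-fold. Median levels were 363 CPM per kb for 7 alpha ring genes, 500 for 7 beta ring genes, 65.0 for 6 ATPases and 57.4 for 11 other 19S subunits. The 3 assembly chaperones had a median of 31.6 CPM per kb. Levels within a ring were unequal. The catalytic subunits Psmb5 (chymotrypsin-like, 131 CPM per kb) and Psmb7 (trypsin-like, 72.9 CPM per kb) were far below Psmb6. Psme2 (478 CPM per kb) and Psme1 (318 CPM per kb) were at the level of the core genes, whereas Psme3 (13.5) and Psme4 (10.5) were at the lower end. Exon lengths were those of the principal GENCODE transcript, so a gene that uses another transcript has a biased level.

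**Figure D1:**
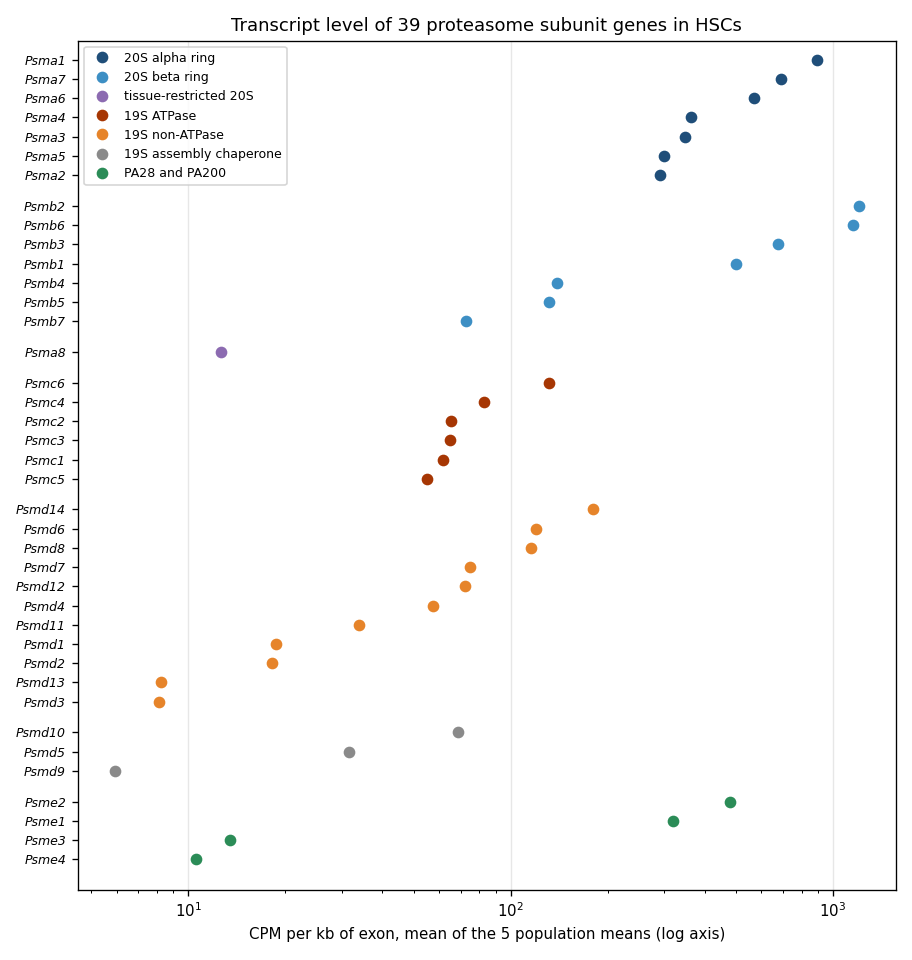
CPM per kb of exon (log axis, mean of the 5 population means) of each of the 39 tested genes, grouped and coloured by its place in the complex. Alpha ring genes lie between 290 and 890 CPM per kb and the 6 ATPases between 54.9 and 132 CPM per kb.

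Most members varied less between samples of a population than the median gene, in a comparison that was not matched for level. The SD of log2 CPM within populations had a median of 0.47 over the 39 tested members, against 1.43 over all tested genes. It was under 0.5 in 20 members and over 1 in 4 (Psmd10, Psma8, Psmd13 and Psmd9). The spread went with level: over the 39 members, Spearman's rho of level per kb and SD was -0.87, as a description of genes that share the same libraries. Psmd13 had 2.80, 0.188 and 47.7 CPM in the 4 week MAC-1+ samples, where Psma2 had 747, 775 and 581 CPM. The 3 widest spreads were at the lower end of the levels, and 38 of the 40 members had counts in every sample. Psma8, the testis-restricted alpha subunit, had no counts in SS MAC-1low replicates 1 and 2, where a count of 0 allows up to 3. It ranged from 1.78 to 48.2 CPM within 4 week MAC-1low HSCs alone, so that its population levels could not be ordered.

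Summed over the 40 genes, the level was highest in 4 week MAC-1- and lowest in 4 week MAC-1+ HSCs. The sums were 14075 ± 636 CPM (SD, n = 3) in 4 week MAC-1-, 11656 ± 868 CPM (SD, n = 4) in 4 week MAC-1low and 9161 ± 1376 CPM (SD, n = 3) in 4 week MAC-1+ samples. In steady state they were 12527 ± 281 CPM (SD, n = 3) in MAC-1- and 11797 ± 349 CPM (SD, n = 3) in MAC-1low samples. The mean of the 14 core genes was 356 to 441 CPM per kb in 4 week MAC-1+ samples and 450 CPM per kb or more in the other 13 samples. The 17 genes of the 19S particle had a mean of 54.1 ± 12.0 CPM per kb (SD, n = 3) in 4 week MAC-1+ and 85.5 ± 4.26 CPM per kb (SD, n = 3) in 4 week MAC-1- samples. The ratio of core to 19S levels was similar, at 7.32 ± 1.28 (SD, n = 3) and 7.26 ± 0.208 (SD, n = 3). Psme1 and Psme2 together did not follow this order, with 382 ± 20.1 CPM per kb (SD, n = 3) and 390 ± 24.8 CPM per kb (SD, n = 3). These sums are described without a test.

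**Figure D2:**
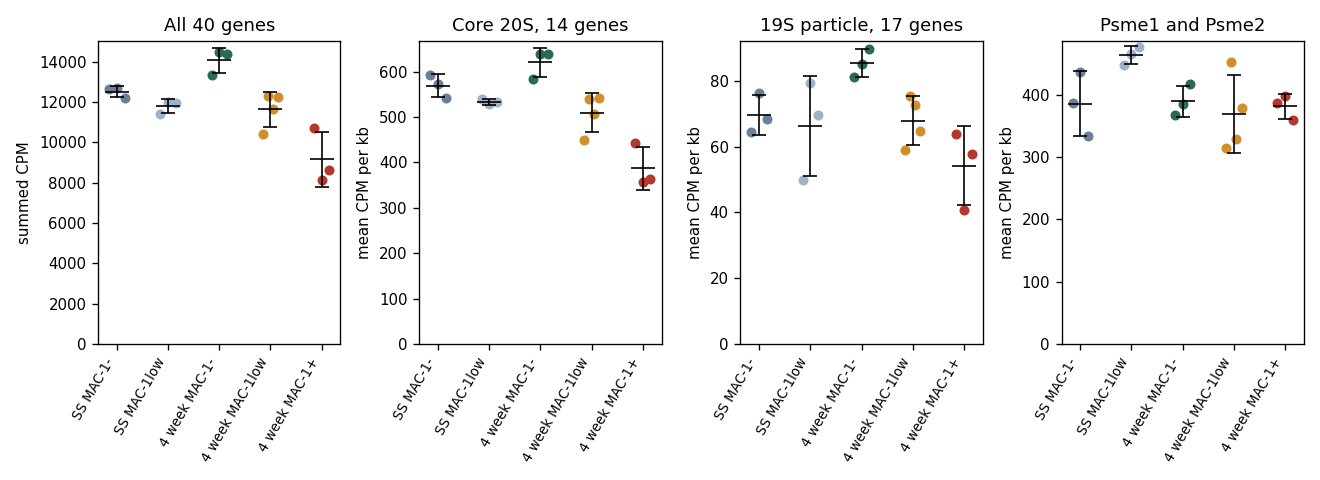
Summed CPM of the 40 genes, and mean CPM per kb of the 14 core 20S genes, of the 17 genes of the 19S particle and of Psme1 with Psme2, per sample. Points are samples, bars the mean ± SD. In the core panel the 3 4 week MAC-1+ samples lie at or below 441 CPM per kb, under the other 13.

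Setting MAC-1+ against MAC-1- HSCs at 4 weeks asks what sets apart the cells that carry MAC-1 early after transplantation. Some core particle genes and Psme3 were lower in MAC-1+ HSCs, while Psme1 and Psme2 differed by less than their error. At an adjusted p below 0.1 in edgeR's quasi-likelihood test, with Benjamini-Hochberg adjustment over all tested genes, 7 of the 39 members were called, each lower in MAC-1+ (background 3.25% of all tested genes called, 2.06% called and lower). They were Psma2, Psma6, Psma7, Psmb1, Psmb3, Psmd8 and Psme3. The log2 fold change was negative in 37 of 39 members (34 to 39 under the other settings tried), against 47.3% of all tested genes. Its median was -0.66 for the members and 0.07 for all tested genes. In 19 members the 3 MAC-1+ samples lay below the 3 MAC-1- samples without overlap (background 11.5%), and no member lay above. At an unadjusted p below 0.05 there were 17 members, each lower, against 13.4% of all tested genes in either direction. These backgrounds hold all tested genes and were not matched to the members for level or spread, and most members varied less within populations than the median gene.

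By place in the complex, 3 of 7 alpha ring genes and 2 of 7 beta ring genes were called, and these 14 genes had negative log2 fold changes from -0.36 (Psmb2) to -1.18 (Psmb3). None of the 6 ATPases was called, although each had a negative value. Of the ATPases 2 had an unadjusted p below 0.05 in edgeR, and neither DESeq2 nor limma-voom called any. Of 11 other 19S subunits 1 was called, and 10 had negative values. None of the 3 assembly chaperones was called by edgeR or limma-voom. 1 of the 3 had an unadjusted p below 0.05, Psmd5, which DESeq2 called (edgeR log2 fold change -1.03 ± 0.31, SE, adjusted p = 0.121). The median log2 fold changes were -0.66 (alpha ring), -0.61 (beta ring), -0.66 (ATPases) and -0.65 (other 19S subunits). The core and the 19S particle thus had medians of about the same size, and 5 of the 7 calls lay in the core. The median SD of log2 CPM within populations was 0.26 in the alpha ring and 0.29 in the beta ring, against 0.57 in the ATPases and 0.63 in the other 19S subunits.

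**Figure D3:**
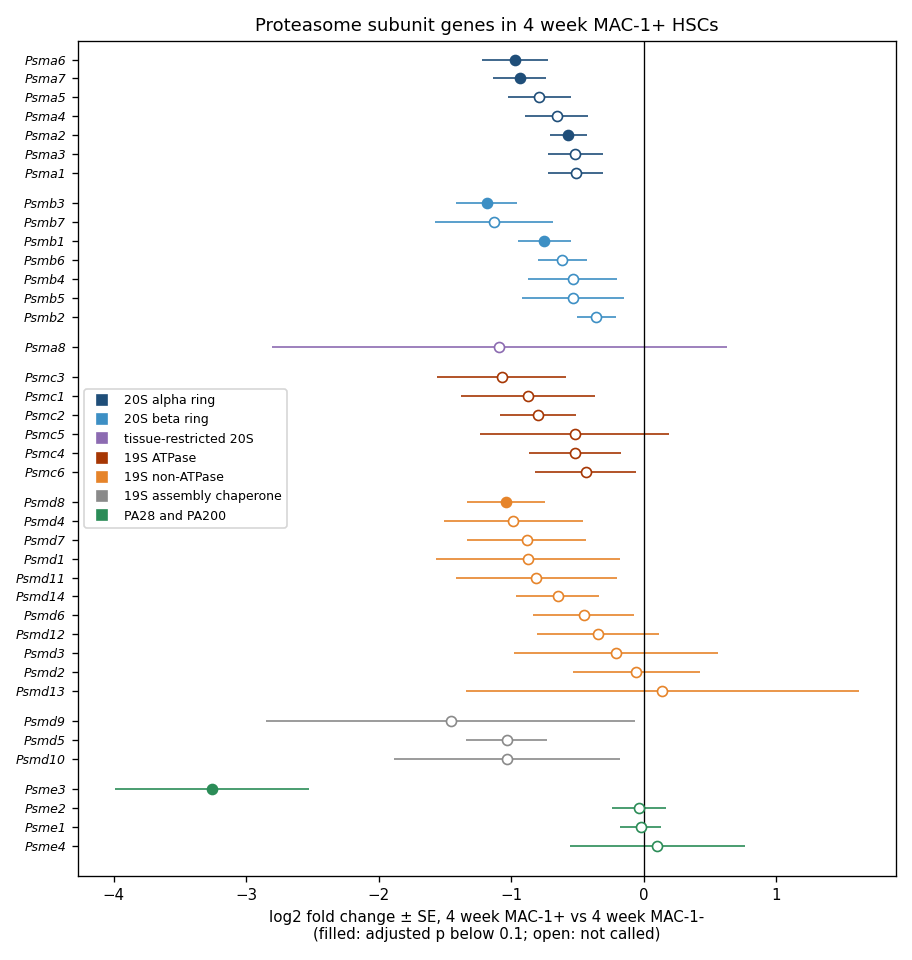
Log2 fold change ± SE of the 39 tested genes at 4 weeks, MAC-1+ against MAC-1- HSCs (n = 3 and 3), by place in the complex. All but Psmd13 and Psme4 lie left of 0, with the 7 called genes marked, and Psme1 and Psme2 lie within 0.04 of it, where another scaling changes their sign.

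Psmb3, a structural beta ring subunit at chr11:97703399-97713500 on the plus strand (GENCODE M21, GRCm38, as all gene positions here), had 706, 748 and 752 CPM in 4 week MAC-1- samples and 297, 282 and 391 CPM in 4 week MAC-1+ samples. The groups were well apart, and the 4 MAC-1low samples, at 327 to 511 CPM, lay between them with an overlap towards MAC-1+. The log2 fold change of MAC-1+ against MAC-1- was -1.18 ± 0.23 (SE, adjusted p = 0.0151), or 2.27-fold lower. Psma7, an alpha ring subunit at chr2:180036374-180042433 on the minus strand, had 773, 715 and 828 CPM against 371, 378 and 461 CPM in MAC-1+. It too was separated without overlap (-0.94 ± 0.20, SE, adjusted p = 0.0244).

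Psma2, Psma6 and Psmb1 are abundant core genes, at chr13:14613240-14674236, chr12:55384222-55418454 (both plus strand) and chr17:15475021-15499751 (minus strand). Psma2 had 974, 1069 and 1078 CPM in MAC-1- and 747, 775 and 581 CPM in MAC-1+ samples (-0.57 ± 0.14, SE, adjusted p = 0.0514). Psma6 had 781, 873 and 671 CPM against 590, 350 and 248 CPM (-0.97 ± 0.25, SE, adjusted p = 0.0642). Psmb1 had 907, 1010 and 1001 CPM against 646, 632 and 458 CPM (-0.75 ± 0.20, SE, adjusted p = 0.0764). In each of these genes the groups did not overlap, and MAC-1+ replicate 3 was the lowest sample. Psmd8, a lid subunit of the 19S particle at chr7:29174188-29180701 on the minus strand, had 190, 253 and 320 CPM in MAC-1- and 118, 102 and 151 CPM in MAC-1+ samples (-1.04 ± 0.29, SE, adjusted p = 0.0940).

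Psme3, at chr11:101316213-101323537 on the plus strand, had the lowest log2 fold change of the 39 members. It had 50.7, 53.9 and 67.1 CPM in 4 week MAC-1- samples, 26.4, 36.9, 26.1 and 34.0 CPM in MAC-1low samples and 12.0, 4.52 and 1.38 CPM in MAC-1+ samples. The 3 populations were ordered without overlap. MAC-1+ was 9.58-fold below MAC-1- (log2 fold change -3.26 ± 0.73, SE, adjusted p = 0.0316), from 35 to 253 reads per MAC-1+ sample. In steady state the gene had 12.2, 57.4 and 21.02 CPM in MAC-1- and 55.6, 52.0 and 59.7 CPM in MAC-1low samples, so that the lowest SS MAC-1- sample was close to the highest 4 week MAC-1+ sample.

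**Figure D4:**
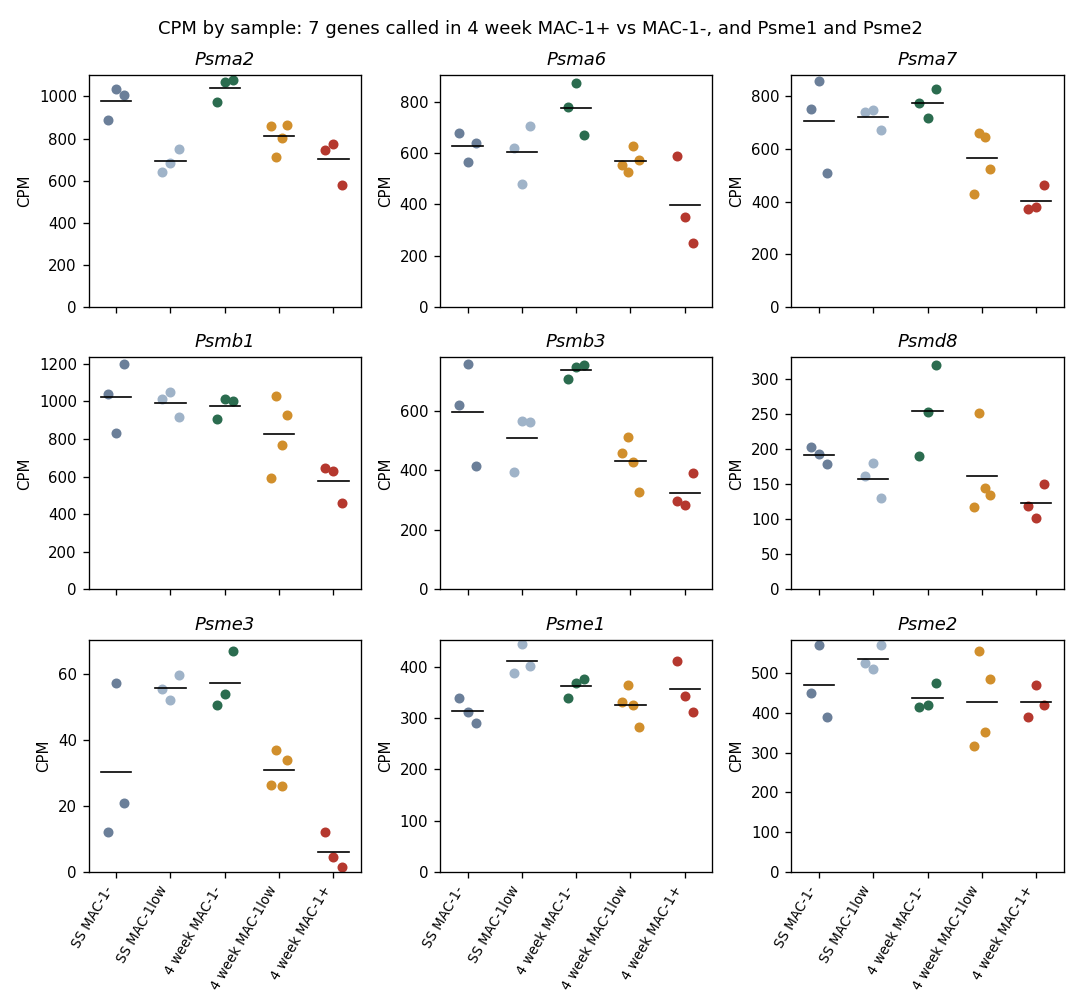
CPM in each of the 16 samples for the 7 called genes and for Psme1 and Psme2, with a line at each population mean (n = 3, 3, 3, 4 and 3). The called genes have their lowest 4 week mean in MAC-1+, while Psme1 has 339 to 377 CPM in 4 week MAC-1- and 313 to 411 CPM in 4 week MAC-1+ samples.

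The PA28 alpha and beta genes had values near 0, unlike their relative Psme3, and the difference between these genes was not tested. Psme1, at chr14:55578123-55581529 on the plus strand, had 339, 369 and 377 CPM in MAC-1- and 411, 344 and 313 CPM in MAC-1+ samples, with a log2 fold change of -0.02 ± 0.16 (SE, adjusted p = 0.986). Psme2 had 415, 421 and 476 CPM against 389, 470 and 421 CPM (-0.04 ± 0.21, SE, adjusted p = 0.984). Both pairs of groups overlapped, and the sign of these values changed with the scaling. Psme4 (0.10 ± 0.66, SE, adjusted p = 0.986) and Psmd13 (0.14 ± 1.48, SE, adjusted p = 0.993) had the only positive values in this fit, with errors far larger than the values. The ratio of PA28 alpha and beta to core level was 0.995 ± 0.122 (SD, n = 3) in MAC-1+ and 0.629 ± 0.0253 (SD, n = 3) in MAC-1- samples. In SS MAC-1low samples it was 0.869 ± 0.0355 (SD, n = 3), overlapping with 4 week MAC-1+.

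The catalytic subunits were not called. Psmb6 had 822, 847 and 1201 CPM in MAC-1- and 638, 558 and 680 CPM in MAC-1+ samples, without overlap (-0.61 ± 0.19, SE, adjusted p = 0.134; DESeq2 called it). Psmb7 had 83.3, 79.8 and 137 CPM against 41.1, 23.4 and 72.5 CPM (-1.13 ± 0.45, SE, adjusted p = 0.278). Psmb5 overlapped, with 95.1, 142 and 190 CPM against 68.9, 129 and 97.1 CPM (-0.53 ± 0.39, SE, adjusted p = 0.625). Their immunoproteasome counterparts Psmb8, Psmb9 and Psmb10, which replace them in antigen-presenting and interferon-treated cells, had 0 of 3 called by edgeR, DESeq2 or limma-voom, and 0 at an unadjusted p below 0.05. Their log2 fold changes were 0.23 ± 0.26 (SE), 0.20 ± 0.56 (SE) and -0.40 ± 0.38 (SE). The immunoproteasome share of the catalytic transcripts, per length, was 31.4% to 39.5% in 4 week MAC-1+, 27.5% to 32.1% in MAC-1low and 23.1% to 27.9% in MAC-1- samples. It was 17.8% to 27.6% in SS MAC-1- and 20.8% to 31.3% in SS MAC-1low samples.

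Promoters are shown for the 3 members with the smallest adjusted p in MAC-1+ against MAC-1-, and for Psme1 as a member that was not called. The RefSeq table (GRCm38.p6) held 36 windows for 33 of the 40 genes. Psmb1, Psmb2, Psmb7, Psmc3, Psmd3, Psmd7 and Psma8 had no entry. The 250 bases before the RefSeq start are printed 5′ to 3′ on the strand of the gene. For Psmb3, Psma7 and Psme1 this start differs from the GENCODE start given above, and the Psme1 window lies inside the GENCODE gene and the Psmb3 window runs past its start. Capitals mark letters of the searched motifs, which were CCAAT (the CCAAT box), GGGCGG (the GC box), CCGGAA (the ETS core), CACGTG (the E-box), TGACNNNGC (the core of the antioxidant response element, bound by Nfe2l1 and Nfe2l2), GCATGCGC (part of an NRF-1 site) and TATAAA (the TATA box). Both strands were searched, and overlapping matches were kept.
Psmb3, chr11:97703184-97703433, plus strand: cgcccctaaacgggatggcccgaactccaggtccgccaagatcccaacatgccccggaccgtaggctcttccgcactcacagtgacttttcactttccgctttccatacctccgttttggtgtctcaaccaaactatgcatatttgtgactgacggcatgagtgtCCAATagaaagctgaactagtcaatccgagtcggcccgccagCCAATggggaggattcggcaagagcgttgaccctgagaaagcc
Psma7, chr2:180042465-180042714, minus strand: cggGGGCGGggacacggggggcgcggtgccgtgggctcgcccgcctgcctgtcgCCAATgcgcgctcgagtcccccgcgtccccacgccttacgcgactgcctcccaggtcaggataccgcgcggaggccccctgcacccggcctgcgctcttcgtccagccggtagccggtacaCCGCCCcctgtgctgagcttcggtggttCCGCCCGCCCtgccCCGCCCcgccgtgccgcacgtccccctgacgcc
Psme3, chr11:101315963-101316212, plus strand: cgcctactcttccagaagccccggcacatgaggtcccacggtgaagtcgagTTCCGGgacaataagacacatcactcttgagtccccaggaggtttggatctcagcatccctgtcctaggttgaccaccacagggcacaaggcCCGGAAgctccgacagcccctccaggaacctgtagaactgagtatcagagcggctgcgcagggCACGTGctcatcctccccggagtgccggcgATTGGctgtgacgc
Psme1, chr14:55578244-55578493, plus strand: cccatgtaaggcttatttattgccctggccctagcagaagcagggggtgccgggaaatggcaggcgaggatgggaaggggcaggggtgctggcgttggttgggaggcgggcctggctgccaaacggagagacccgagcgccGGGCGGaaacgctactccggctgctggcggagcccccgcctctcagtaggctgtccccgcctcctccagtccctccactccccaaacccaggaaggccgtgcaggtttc

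Psmb3 held CCAAT at 85 and 43 bases before the start, and Psma7 held 5 GC boxes and CCAAT at 196 bases before it. Psme3 had both ETS cores (199 and 107 bases before the start), an E-box at 44 and CCAAT at 14. Psme1 had a single match, a GC box at 109 bases before the start. Over the 36 windows, GGGCGG stood in 58.3% (32.7% of all 32851 windows), CCGGAA in 44.4% (12.0%) and CCAAT in 36.1% (33.8%). The antioxidant response core was in 13.9% (10.2%), the E-box in 8.33% (6.02%), GCATGCGC in 5.56% (2.26%) and TATAAA in 8.33% (12.4%). The 5 genes with the antioxidant response core were Psmb5, Psmb6, Psmc6, Psmd9 and Psmd12. EdgeR and limma-voom called none of them in MAC-1+ against MAC-1-, and DESeq2 called Psmb6. Matches are letters in a window and not sites shown to be bound.

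MAC-1low HSCs lay between both other 4 week populations for most members. Mean CPM was highest in MAC-1-, lower in MAC-1low and lowest in MAC-1+ in 28 of the 39 tested members (background 23%), and the opposite order was seen in no member (25.2% of all tested genes). Without 4 week MAC-1+ replicate 3 the first order was seen in 29 members (24.6% of all tested genes). The single steps were not called. Of MAC-1low against MAC-1- edgeR called 0 members (background 0.278%), and 4 had an unadjusted p below 0.05 (7.25% of all tested genes). Psmb3 was called by DESeq2 and limma-voom, and Psma2 by limma-voom, calls for which the share of all tested genes was not worked out. The edgeR values were -0.77 ± 0.21 (SE, adjusted p = 0.290) for Psmb3 and -0.36 ± 0.13 (SE, adjusted p = 0.548) for Psma2, both without overlap. The log2 fold change was negative in 35 members, and its median was -0.35 (0.05 over all tested genes). The lowest value was that of Psmd9 (-2.02) and the highest that of Psmd13 (0.61).

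Of MAC-1+ against MAC-1low edgeR called 0 members (background 0%), limma-voom also called 0, and DESeq2 called Psme3. The background is edgeR's, and that of DESeq2 and limma-voom was not worked out. In edgeR 9 members had an unadjusted p below 0.05 (6.85% of all tested genes). The median was -0.40 (-0.00207 over all tested genes), and 32 members had negative values. Psme3 had the lowest value (-2.37 ± 0.68, SE, adjusted p = 0.535) and Psmd2, a scaffold subunit of the 19S base, the highest (0.62). In 4 members MAC-1+ lay lower without overlap, and the share of all tested genes that did so was not worked out. Besides Psme3 they were Psma4 (-0.75 ± 0.22, SE, adjusted p = 0.563), Psmd4, a ubiquitin receptor (-1.40 ± 0.50, SE, adjusted p = 0.651), and Psmd7. Psmd7 had 54.6 to 89.5 CPM in MAC-1+ and 129.9 to 145.2 CPM in MAC-1low samples. The 3 4 week comparisons share samples, so their values are not independent.

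**Figure D5:**
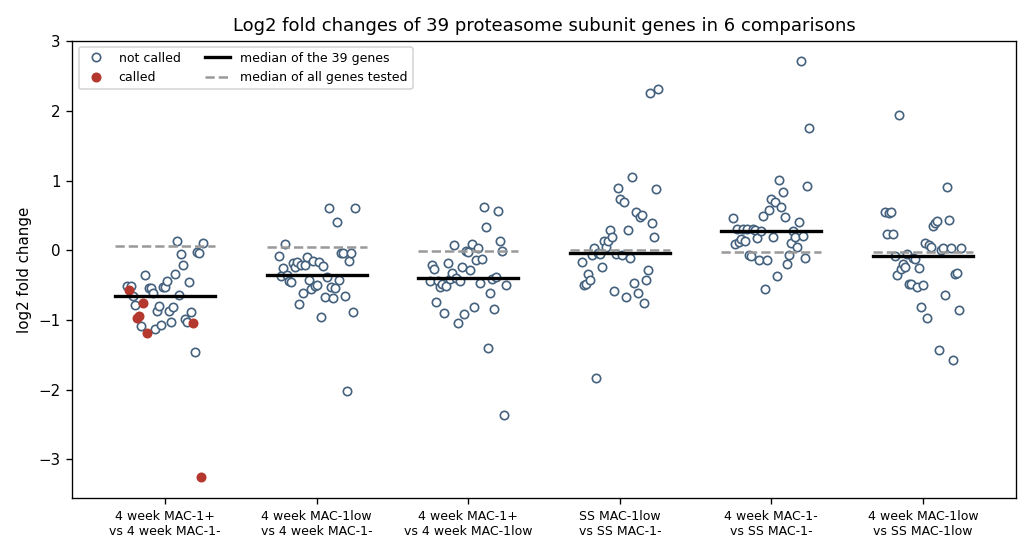
Log2 fold changes of the 39 tested genes in the 6 planned comparisons, each point a gene. Black bars are the median of the 39 genes and dashed grey bars the median of all tested genes. The medians of the genes are -0.66, -0.35 and -0.40 in the 4 week comparisons and -0.04, 0.28 and -0.08 in the others, and called genes (red) are in the first comparison.

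Between the steady-state populations the median of the group was near 0. Of SS MAC-1low set against SS MAC-1- edgeR called 0 members (background 0.0146%), and 5 had an unadjusted p below 0.05 in edgeR (9.36% of all tested genes). Limma-voom called 0 members, and DESeq2 called Psme4 (higher) and Psma2 (lower). The shares of all tested genes that DESeq2 and limma-voom called were not worked out, so their counts have no background. The median was -0.04, with 19 positive and 20 negative values. Psma2 had 889, 1036 and 1006 CPM in SS MAC-1- and 643, 682 and 750 CPM in SS MAC-1low samples, without overlap (-0.50 ± 0.14, SE, adjusted p = 0.409). Psme4, the PA200 cap, had 11.4, 34.0 and 11.3 CPM against 102, 127 and 54.4 CPM, also without overlap (2.32 ± 0.69, SE, adjusted p = 0.414). The other members of its class were positive too, with Psme1 at 340, 312 and 290 against 389, 445 and 401 CPM (0.39 ± 0.16, SE, adjusted p = 0.521). Psma8 had the lowest value (-1.83) and Psme4 the highest. Whether the MAC-1low against MAC-1- difference itself differed between 4 weeks and steady state was tested as an interaction. Of the 39 members 0 were called (background 0.0586%), 4 had an unadjusted p below 0.05, and the smallest adjusted p was 0.445 (edgeR's quasi-likelihood test, the tool used for it). The share of all tested genes at that unadjusted limit was not worked out for the interaction.

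After transplantation MAC-1- HSCs had somewhat higher levels, without calls. Between the MAC-1- populations of 4 weeks and of steady state, edgeR, DESeq2 and limma-voom each called 0 members. EdgeR's background was 0.432%, and shares of all tested genes called were not worked out for DESeq2 and limma-voom. In edgeR 2 members had an unadjusted p below 0.05 (10.4% of all tested genes). The log2 fold change was positive in 30 members with a median of 0.28 (-0.03 over all tested genes). It ran from -0.56 (Psmc2) to 2.71 (Psmd9, from 7.04, 6.97 and 0.103 CPM to 37.0, 16.5 and 39.2 CPM). Between the MAC-1low populations edgeR called 0 members (background 0.0439%), and 9 had an unadjusted p below 0.05 in edgeR (8.89% of all tested genes). Limma-voom called 0 members and DESeq2 called Psmd2, at -1.43 ± 0.45 (SE, adjusted p = 0.399 in edgeR), again without a worked-out share of all tested genes. The median was -0.08, with values from -1.57 (Psmd9) to 1.94 (Psma8). Alpha ring and beta ring genes had medians of opposite sign there, 0.23 and -0.23. Psma1 was 859 ± 73.3 CPM (SD, n = 3) in SS and 1262 ± 171 CPM (SD, n = 4) in 4 week MAC-1low samples, and Psmb6 was 1154 ± 118 CPM (SD, n = 3) and 826 ± 171 CPM (SD, n = 4). Neither was called (adjusted p = 0.458 and 0.475).

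4 week MAC-1+ HSCs were also set against both steady-state populations, a choice made after the values had been seen. Against SS MAC-1- 5 members were called, each lower (background 2.36%). These were Psmc2, Psmb1, Psmb6, Psma7 and Psmb3. Psmc2, an ATPase of the 19S base, had 144, 217 and 186 CPM in SS MAC-1- and 81.8, 69.2 and 63.2 CPM in 4 week MAC-1+ samples (-1.35 ± 0.29, SE, adjusted p = 0.0362). In 15 members MAC-1+ lay lower without overlap (background 8.62%), and the median was -0.38. Against SS MAC-1low 4 members were called, each lower (background 1.42%), namely Psmb6 (-0.88 ± 0.19, SE, adjusted p = 0.0594), Psme3, Psma7 and Psmd5. There 10 members lay lower without overlap (background 8.56%), and the median was -0.41. These counts changed when single libraries were left out. The share of all tested genes called was not worked out for these refits, so the counts below have no background. The 5 calls became 1 without SS MAC-1- replicate 1 or 2 or MAC-1+ replicate 2, and 2 without MAC-1+ replicate 3. They became 3 when SS MAC-1- replicate 3, 4 week MAC-1low replicate 3 or any 4 week MAC-1- replicate was left out. The 4 calls became 0 without SS MAC-1low replicate 1 or 2 or MAC-1+ replicate 2 or 3, and 1 when SS MAC-1low replicate 3, 4 week MAC-1low replicate 3 or any 4 week MAC-1- replicate was left out. They numbered 2 if SS MAC-1- replicate 1, 4 week MAC-1low replicate 4 or MAC-1+ replicate 1 was the library left out. Psma7 was called in each of the 3 comparisons of MAC-1+ with another population that gave calls, all of which share the MAC-1+ samples.

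In a joint test over the 5 populations 3 members were called (background 2.22%), Psmb3 (adjusted p = 0.0773), Psma2 (0.0812) and Psmc2 (0.0872) by edgeR. At an unadjusted p below 0.05 there were 15 of 39 members, against 13.8% of all tested genes. Psmb3 had its highest mean in 4 week MAC-1- (735 ± 25.3 CPM, SD, n = 3) and its lowest in 4 week MAC-1+ (324 ± 58.8 CPM, SD, n = 3). Psma2 had means of 977 and 1040 CPM in SS and 4 week MAC-1- and of 692, 810 and 701 CPM in SS MAC-1low, 4 week MAC-1low and 4 week MAC-1+. Its MAC-1- samples thus stood above those of the other populations, with the lowest at 889 CPM and the highest of the others at 865 CPM. Psmc2 had its highest mean in SS MAC-1- and its lowest in 4 week MAC-1+ HSCs. The joint calls numbered 5 with MAC-1+ replicate 1 left out and 1 with SS MAC-1- replicate 2 left out. They numbered 0 with any 1 of these libraries left out: SS MAC-1- replicate 1, SS MAC-1low replicate 2 or 3, 4 week MAC-1low replicate 3 or 4, MAC-1+ replicate 2 or 3, or any 4 week MAC-1- replicate. Joint calls over all tested genes were not worked out for these refits.

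Genes that work with the proteasome were compared by list between MAC-1+ and MAC-1- HSCs at 4 weeks. Over all tested genes edgeR called 3.25%, DESeq2 9.6% and limma-voom 6.34%, and 13.4% had an unadjusted p below 0.05 in edgeR. Of 8 chaperone genes 6 had negative values and 1, Hsp90aa1, fell in MAC-1+ (-0.75 ± 0.21, SE, adjusted p = 0.0940), a call that DESeq2 and limma-voom also made. Of 9 assembly factors and cofactors edgeR and DESeq2 called 0 and limma-voom called Shfm1, a small 19S subunit, with 2 at an unadjusted p below 0.05 in edgeR, and 8 had negative values with a median of -0.46, among them Pomp, which matures the core (-0.56 ± 0.24, SE, adjusted p = 0.323). Of 4 genes for transcriptional control (Nfe2l1, Nfe2l2, Ddi2 and Ngly1) 1 had a negative value, and the median was 0.23. The p97 complex (3 genes), the shuttle factors (5) and the proteasome-bound ubiquitin enzymes (3) had medians of -0.87, 0.21 and -0.28. These last 4 lists had 0 calls by edgeR, DESeq2 or limma-voom and 0 genes at an unadjusted p below 0.05 in edgeR.

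Other cell markers moved with the same comparison, and their part in the values above was not tested. Summed CPM of 6 megakaryocyte genes was 4251 to 6744 in 4 week MAC-1- and 156 to 198 in 4 week MAC-1+ samples, where Gp1bb was at 0, and edgeR called 3 of 6, each lower. Summed CPM of 8 neutrophil genes was 23.1 to 69.7 in MAC-1-, with Elane, Lcn2 and Ltf at 0, and 164, 951 and 7304 in MAC-1+ replicates 1, 2 and 3, although the sort left out Gr+ cells. Of 6 tested neutrophil genes, 2 were called higher. The sum of 7 HSC genes was 689 to 882 CPM in MAC-1- and 2237 to 3437 CPM in MAC-1+, with 5 of 7 called higher. Slamf1 was the 1 of these 7 with a negative value (-0.64, adjusted p = 0.936 in edgeR), and its error was larger than the value. It had 68.6, 74.0 and 71.1 CPM in MAC-1- and 7.98, 0.126 and 129 CPM in MAC-1+ samples. Cd48, outside this list, had 71.7, 89.9 and 133 CPM in MAC-1- and 45.4, 0 and 41.3 CPM in MAC-1+, although CD48- cells were sorted. The 8 proliferation genes summed to 1682 to 2221 CPM in MAC-1- and 941 to 1403 CPM in MAC-1+ samples. Each of the 8 had a negative value, edgeR called 0 (4 had an unadjusted p below 0.05), and DESeq2 and limma-voom called 3 each. The erythroblast sum was 21.03 to 28.1 CPM in MAC-1- and 79.2 to 178 CPM in MAC-1+, with Alas2 at 0 in both. Of 5 tested erythroblast genes 1, Hbb-bt, was called higher. Of the same 5 genes 2 had negative values, Klf1 (-3.67 ± 2.91, SE) and Hbb-bs (-0.03 ± 1.83, SE), neither of them called. NK cell genes, with Klrd1 and Ncr1 at 0 in both, had sums of 323 to 642 CPM in MAC-1- and of at most 176 CPM in MAC-1+. The 2 tested NK cell genes differed in direction. Nkg7 was called lower by edgeR (-2.51 ± 0.64, SE, adjusted p = 0.0643), and Klrb1c had a positive value (1.98 ± 2.84, SE, adjusted p = 0.875). DESeq2 called both, and limma-voom called Nkg7. Monocyte/macrophage (346 to 584 and 458 to 719 CPM) and B cell sums (6.40 to 33.6 and 15.1 to 119 CPM) overlapped, with Cd79a at 0 in both. In these lists 0 genes were called by edgeR, DESeq2 or limma-voom, and 0 had an unadjusted p below 0.05 in edgeR. Fewer cells of a type and less RNA per cell cannot be told apart in these bulk samples.

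The count of 7 called members rested on single libraries. It came to 4, 3 and 2 when MAC-1- replicates 1, 2 and 3 of 4 weeks were left out in turn, each lower in MAC-1+ (1.64%, 1.54% and 1.69% of all tested genes called). It came to 2 with MAC-1+ replicate 2 left out (1.72%) and to 3 with MAC-1+ replicate 3 left out (1.76%). Calls over all tested genes, 3.25% with every library, were thus fewer too. In the absence of MAC-1+ replicate 3, the library with the most neutrophil reads, Psmb3, Psme3 and Psma7 were called, and 36 members had negative values. Psmb3 was called under each of the 24 alternatives tried for it. Reads of 11 members could be shared with a near-identical copy elsewhere, at least 95% identical over 150 bases. The copies in the table held at most 7.75% of a member's counts (Psmd11), and 0.197% and 0.0144% for Psmb3. Exons of 10 members overlap another gene, which can add reads where strand was not used, as for Psmd9 (1849 shared bases), Psmb7 (405) and Psmd13 (342).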

How the data were processed

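RNA was sequenced in 16 samples of HSCs, mapped to 5 populations by their labels. The authors deposited 1 table of raw counts per gene, for which their methods name an nf-core pipeline with STAR as aligner. Counting program, strand setting, genome build and gene models: not given in the sources used here. Without molecular identifiers in SMART-Seq, PCR copies count as reads, and floors cover counting error only (a count of 0 allows 3 counts).

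In R 4.3.3, edgeR 4.0.16 with TMM factors, its default filter and a robust quasi-likelihood test was fitted to all samples, with 1 mean per population. Each comparison was a contrast, and calls had a Benjamini-Hochberg adjusted p below 0.1. log2 CPM used a prior count of 2. DESeq2 1.42.0 and limma 3.58.1 (voom with sample weights) were alternatives, as were other scalings, filters and samples, and each sample left out. The fits were tested on simulated data. Replicates of a population differed beyond sampling noise (chi-square per degree of freedom 120 to 291). Members and lists were chosen with earlier results of these data known. Named were called members, the smallest joint p, the extremes of each comparison, catalytic, PA28 and tissue-restricted genes, and the highest and lowest levels. Other members named were chosen after their values were seen. Of 46078 identifiers, 45143 were in GENCODE M21, which gave exon lengths, copies and overlaps. Promoters came from RefSeq. 1 list of related genes is not reported here. Plots used Python 3.11.15 with matplotlib 3.10.9.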

Additional observations from a re-analysis of the deposited data

Results flagged for a closer look

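1 value lay far from the others of its population. Psmd4, a ubiquitin receptor of the 19S particle, had 74.3 CPM in 4 week MAC-1low replicate 1 and 105.9 to 111.1 CPM in the other 3 samples of that population. The gap was 0.857 of the whole range, above Dixon's 95% limit for a group of 4. It was the 1 such value among 49 looked at, and chance alone gives about 1 in 20.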

How the results depend on the processing

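Counts of called members depended on the processing more than their direction did. For MAC-1+ against MAC-1- HSCs at 4 weeks, 7 members were called (3.25% of all tested genes). The 7 calls became 10 with DESeq2 (9.6% of all genes tested in that fit) and 10 with limma-voom (6.34%). They became 4 with DESeq2 size factors (2.88%), with no filter (1.09%) or with the number of detected genes as covariate (2.43%). With the compared groups alone they became 2 (1.32%), and with a replicate left out 2 to 9 (1.54% to 3.1%). Each call was lower in MAC-1+, and calls over all tested genes moved too. The count of 0 became 1 (DESeq2) or 2 (limma-voom) for MAC-1low against MAC-1- at 4 weeks. With DESeq2 it became 1 for MAC-1+ against MAC-1low, 2 in steady state and 1 between the MAC-1low populations. Against SS MAC-1- the 5 calls became 8 (DESeq2), 1 (limma-voom or no filter), 0 (compared groups alone) and 1 to 5 with a replicate left out. Against SS MAC-1low the 4 calls became 1 (limma-voom), 2 (size factors, no filter or covariate), 0 (compared groups alone) and 0 to 5 with a replicate left out. The 3 joint calls became 9 (DESeq2), 6 (no filter), 5 (at least 50 counts in 3 samples), 0 (size factors or covariate), 0 to 5 with a replicate left out, and 1 without genes that have a copy or overlap. That last choice, made after seeing the data, moved the median against SS MAC-1- from -0.38 to -0.65. For the other comparisons and the joint test, shares of all tested genes under these settings were not worked out, so their counts have no background here. The cause of these changes was not tested.

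The near-zero log2 fold change of Psme1 was 0.0517 (DESeq2), 0.0518 (size factors), 0.0246 (no filter), 0.00161 (stricter filter) and 0.0546 (covariate), and -0.138 to 0.0912 with a replicate left out. For Psme2 it was 0.0372 (DESeq2 and size factors), 0.0112 (no filter) and 0.0294 (covariate), and -0.0805 to 0.02996 with a replicate left out.

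Over 30 pairs of same-numbered samples, deviations correlated between -0.0249 and 0.0397. The highest values, 0.0397, 0.0331 and 0.0255, were those between the 4 week samples of replicate 1. Replicate numbers need not mark samples sorted together. By the running numbers in the sample names, 4 week MAC-1- replicate 2 stands next to 4 week MAC-1+ and MAC-1low replicate 3. Pairing by these running numbers was not tested, so the correlations cannot show whether samples were paired. With the replicate block there were 5 calls in the first comparison, 2 each against SS MAC-1- and SS MAC-1low, 0 in the joint test and 0 in the other 5 comparisons. Psmd9, Psmd13 and Psma8 had errors over 1 on the log2 scale, so that the spread between their samples limits what could be detected.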
